A study of Homo sapiens with 8 samples.

Results

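The 10 genes FGFR1, FGFR2, FGFR3, FGFR4, EGFR, ERBB2, ERBB3, MET, MST1R and IGF1R encode growth factor receptor tyrosine kinases. They were chosen as receptors amplified or active in gastric cancer, with earlier results of these data known. Each was taken as the probe sets annotated with its symbol alone, which gave 11 probe sets of the 19158 that carried a single symbol, and 10 of 18404 genes. IGF1R had 2 probe sets, called brighter and dimmer by their mean level, and each other receptor had 1. Receptors of this class span the plasma membrane, bind a growth factor outside the cell, pair up and phosphorylate each other on tyrosine. The phosphotyrosines recruit adaptors that drive the RAS-MAP kinase, PI3 kinase-AKT and phospholipase C pathways. Active receptors are ubiquitinated, sorted in endosomes and recycled or degraded, and in stomach cancer FGFR2, ERBB2, EGFR and MET are known targets of gene amplification.

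The receptors were read in HSC39, a cell line of human signet ring stomach carcinoma grown in RPMI medium with 10% fetal calf serum. RNA of 8 samples was hybridised to 8 Affymetrix Human Gene 1.0 ST arrays. Of these, 4 were labelled as treated with the All stars negative siRNA, a control small interfering RNA, 2 with TRIM44 siRNA 7 and 2 with TRIM44 siRNA 9. The study asks what happens to gene expression when TRIM44, a tripartite motif protein with a ubiquitin-binding zinc finger, is lowered. The treatment protocol gives 100 nM (written nm) of siRNA for 48 h but names only TRIM44 siRNA, also for the negative samples. Since the series text mentions untreated cells instead, groups follow the sample labels. All samples come from this 1 line, and the labels do not say whether replicates were separate cultures. P-values therefore rest on a spread among samples that may be technical, and both TRIM44 reagents were set against the same 4 negative arrays.

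Values are log2 expression levels, so that a difference of 1 is a doubling, and levels of different probe sets cannot be compared with each other. Array medians lay between 6.78 and 6.87, pairs of arrays correlated at 0.991 to 0.997, and the RNA integrity numbers were above 9.3 in the labels. Along the leading axis of a principal component analysis (32.5% of the variance) negative array 2 stood at 13.6, beside the siRNA 9 arrays at 15.5 and 17.2, while the other 5 arrays lay between -11.8 and -5.57. Results that gained or lost their call without this array are given with and without it. TRIM44 itself read 11.91, 12.02, 11.91 and 11.77 on the negative arrays, 10.85 and 11.27 with siRNA 7, and 11.10 and 11.14 with siRNA 9. All 4 TRIM44 siRNA arrays lay below all negative arrays, the difference was -0.81 (limma adjusted p = 0.0449), and the level was 57.0% of negative. Against negative siRNA, TRIM44 differed by -0.84 with siRNA 7 and -0.78 with siRNA 9 (limma adjusted p = 0.0405 and 0.0155), and the reagents differed by -0.06 (limma adjusted p = 0.903). The call for both reagents together was lost when any array other than siRNA 7 array 2 was left out (limma adjusted p = 0.0587 to 0.291), although the difference stayed between -0.87 and -0.73. Epithelial markers (11 of 12 measured) averaged 9.58 to 9.73 per array, with EPCAM at 12.25 to 12.59, CDH1 at 11.62 to 12.06 and KRT8 at 12.95 to 13.18. Marker means over fibroblast (9 of 9), leukocyte (6 of 7) and endothelial (5 of 5) genes ranged over 6.41 to 6.63, 7.06 to 7.33 and 5.61 to 5.87. None of these 4 marker lists held a gene past the limma threshold in any comparison, and at an unadjusted p under 0.05 a list held 0 or 1. Genes of 1 list read differently: the stomach markers TFF1, CLDN18 and GKN1 at 8.95 to 9.60, 5.97 to 6.48 and 4.05 to 4.39, the leukocyte genes LYZ, CD68 and PTPRC at 11.32 to 11.69, 9.08 to 9.33 and 4.07 to 4.35, and the mesenchymal genes LUM, COL1A1 and VIM at 9.49 to 10.17, 7.58 to 7.86 and 5.64 to 6.06. Signal over background is not known, so that these levels do not show which of them are expressed.

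The promoters show a feature that the choice of receptors did not use. The RefSeq promoter table (GRCh38.p14) held an entry for 8 of the 10 receptors, and the 250 bases before the most upstream start listed were read for each. A GC box (GGGCGG or its reverse complement CCGCCC) lay in 7 of 8, against 42.2% of 27305 genes read the same way. No filter on gene type was applied to these 27305 genes, and shares among protein-coding genes alone were not computed. At least 3 GC boxes lay in 4 of 8, against 13.9% of all. The TATA box letters TATAAA were in 0 of 8, against 11.2%, and CCAAT was in 2 of 8, against 33.0%, both searched on either strand. With only 8 windows, both counts are near those shares and set the receptors apart in neither motif. These motifs cannot share a whole match with the GC box. The windows had a median GC content of 76.0%, from 65.6% to 86.8%, against 57.6% over all genes, and a median of 24.5 CpG pairs against 10.0. GC boxes and CpG pairs hold only G and C, so these measures are not independent of the GC content. GC-rich promoters without a TATA box are known from textbooks for many growth factor receptor genes. A match of letters does not show that a factor binds. The strand is that of the gene, capitals mark GC boxes, and the 3 windows printed are the one with the most boxes (FGFR3, 8), that of the receptor whose level differed most between the reagents (EGFR, 2) and that of MET (2).
FGFR3 (chr4:1793043-1793292, plus strand): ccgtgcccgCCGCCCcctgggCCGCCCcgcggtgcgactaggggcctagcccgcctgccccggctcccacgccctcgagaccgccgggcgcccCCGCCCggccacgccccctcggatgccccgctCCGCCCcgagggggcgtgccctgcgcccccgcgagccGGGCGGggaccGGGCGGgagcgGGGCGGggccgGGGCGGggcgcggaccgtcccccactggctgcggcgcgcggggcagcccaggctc
EGFR (chr7:55018767-55019016, plus strand): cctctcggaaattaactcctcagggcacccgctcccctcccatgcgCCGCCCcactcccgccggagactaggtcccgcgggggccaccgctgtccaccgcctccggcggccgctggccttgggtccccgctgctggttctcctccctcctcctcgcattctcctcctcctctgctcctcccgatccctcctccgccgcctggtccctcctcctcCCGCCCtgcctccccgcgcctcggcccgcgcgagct
MET (chr7:116671946-116672195, plus strand): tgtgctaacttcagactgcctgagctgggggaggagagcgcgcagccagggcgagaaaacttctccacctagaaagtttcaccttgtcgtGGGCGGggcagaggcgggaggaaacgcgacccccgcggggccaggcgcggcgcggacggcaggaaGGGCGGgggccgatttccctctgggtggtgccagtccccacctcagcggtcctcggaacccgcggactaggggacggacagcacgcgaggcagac
In FGFR3 the boxes stand in both orientations along the window. In EGFR both read CCGCCC, and in MET both read GGGCGG. The RefSeq table places a long noncoding RNA gene over the EGFR, MET and IGF1R windows, COMETT for MET and IRAIN for IGF1R. Of the other entries, FGFR2 held 3 boxes, FGFR4 7, MST1R 4 and IGF1R 2. The last 14 bases of the FGFR2 window lie inside the bounds that the RefSeq gene table gives for FGFR2. ERBB2, whose window runs into the neighbouring gene PGAP3, held 0.

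No receptor passed the test in any comparison, and the largest fitted differences belonged to FGFR1, EGFR and ERBB3. The TRIM44 siRNA arrays taken as 1 condition of 4 were set against negative siRNA, then each reagent was set against negative siRNA and the reagents against each other. At a limma adjusted p of 0.05, 0 of the 11 receptor probe sets passed in each of the 4 comparisons, where 0.00522%, 0.0679%, 0.924% and 2.23% of all 19158 probe sets did. At an unadjusted limma p under 0.05 there was 1 for TRIM44 siRNA (ERBB3), 1 for siRNA 7 (FGFR1), 2 for siRNA 9 (EGFR and ERBB3) and 1 between the reagents (EGFR). The matching shares of all probe sets were 5.43%, 7.46%, 13.6% and 15.7%. Groups did not overlap for 1 receptor probe set (ERBB3), 3 (FGFR1, ERBB2, ERBB3), 2 (EGFR, ERBB3) and 3 (FGFR1, EGFR, ERBB2). The background for this was 2.86%, 14.4%, 22.7% and 48.6%. The counts for siRNA 9 and between the reagents were thus no higher than the shares over all probe sets.

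**Figure D1:**
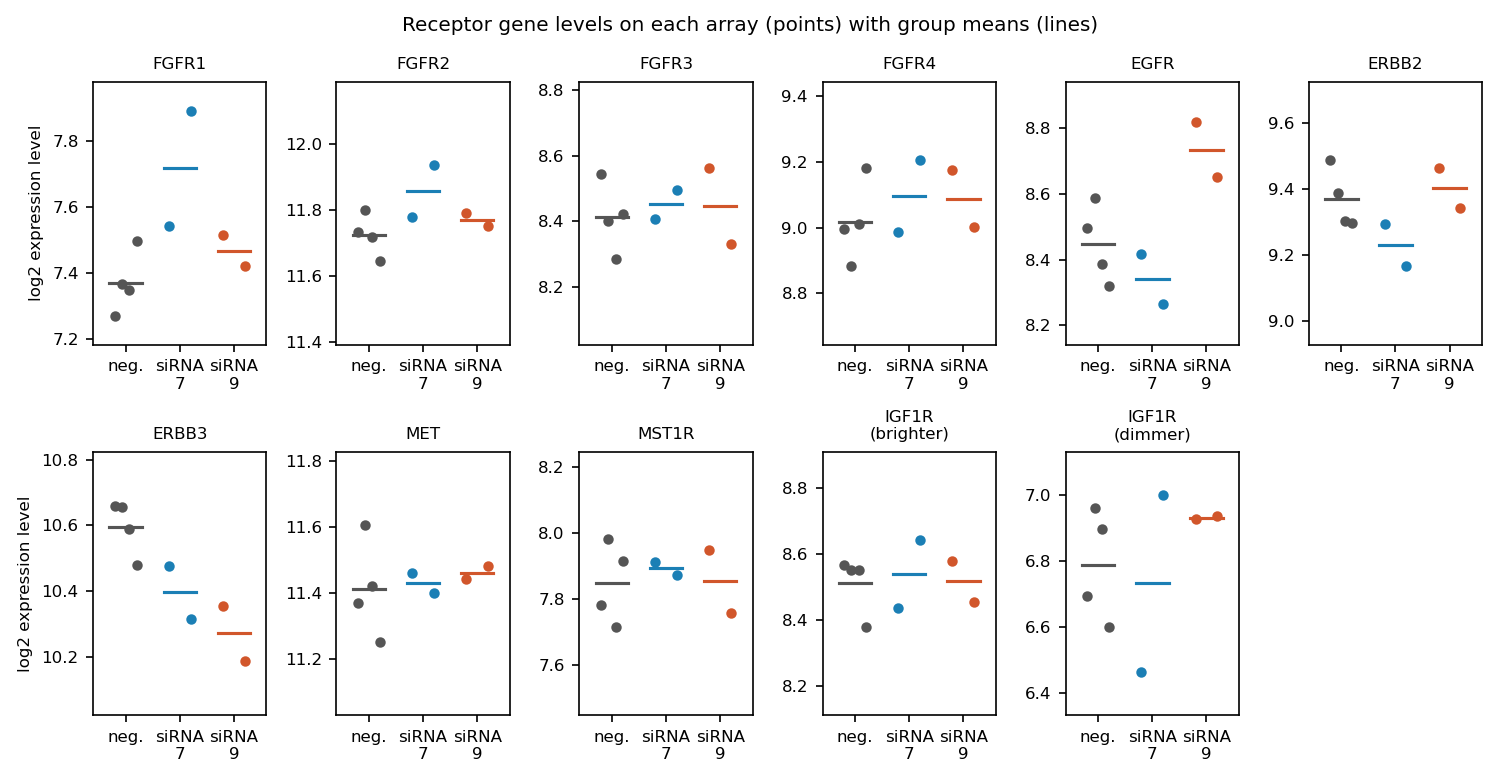
Log2 expression level (vertical axes, which differ between panels) of each receptor probe set on every array, by group on the horizontal axis; points are arrays (4 negative, 2 siRNA 7, 2 siRNA 9) and lines are group means. ERBB3 lies lower on the 4 TRIM44 siRNA arrays (10.19 to 10.48) than on the negative arrays, EGFR is highest with siRNA 9 (8.65 and 8.82), and FGFR1 is highest with siRNA 7 (7.54 and 7.89).

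Among the ERBB receptors, ERBB3 had lower values with both reagents. ERBB3 has little kinase activity of its own, binds neuregulins and signals to PI3 kinase through its partners, ERBB2 above all. Its levels were 10.66, 10.66, 10.59 and 10.48 on the negative arrays, 10.48 and 10.32 with siRNA 7, and 10.36 and 10.19 with siRNA 9. Every TRIM44 siRNA array lay below every negative array, as 1.26% of all probe sets did, but siRNA 7 array 1 and negative array 4 differed only in the third decimal. Group means were 10.60 ± 0.08 (SD, n = 4) for negative siRNA, 10.40 ± 0.11 (n = 2) for siRNA 7 and 10.27 ± 0.12 (n = 2) for siRNA 9. The difference of TRIM44 siRNA from negative siRNA was -0.26 (SE 0.09, 95% interval -0.45 to -0.08), a level of 83.4% of negative with an interval of 73.4% to 94.8%. It did not pass the threshold (limma adjusted p = 0.800). The difference was -0.20 (SE 0.10, limma adjusted p = 0.729) for siRNA 7 and -0.32 (SE 0.10, limma adjusted p = 0.164) for siRNA 9. These reagent differences share the negative arrays, and the reagents differed from each other by 0.12, within the spread. Without negative array 2 the 3 differences of ERBB3 were -0.24, -0.18 and -0.30 (limma adjusted p = 0.485, 0.565 and 0.108). In bulk RNA, fewer cells that make a transcript and less of it per cell cannot be told apart.

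EGFR, the receptor of EGF, TGF-alpha and other ligands of that family, had higher values with siRNA 9 than with siRNA 7. Its levels were 8.49, 8.59, 8.39 and 8.32 on the negative arrays, 8.42 and 8.26 with siRNA 7, and 8.82 and 8.65 with siRNA 9. Both siRNA 9 arrays lay above every other array, while the siRNA 7 arrays overlapped the negative ones. EGFR was 0.29 higher than negative with siRNA 9 (SE 0.10, 95% interval 0.06 to 0.52) and did not pass (limma adjusted p = 0.241). With siRNA 7 the difference was -0.11, and siRNA 7 minus siRNA 9 was -0.39 (SE 0.12, interval -0.66 to -0.13), again short of the threshold (limma adjusted p = 0.124). Averaged over both reagents, the difference was 0.09. EGFR levels tracked that leading axis at a Pearson r of 0.82 over 8 arrays, which share 1 cell line and 1 normalisation. Among the other receptors this r ran from -0.41 for ERBB3 to 0.67 for MET. Negative array 2 and the siRNA 9 arrays were high both on the axis and in EGFR. The part of this axis in the EGFR and ERBB3 results was not tested. Without negative array 2, EGFR differed by 0.33 for siRNA 9 (limma adjusted p = 0.0782) and still by -0.39 between the reagents (limma adjusted p = 0.0601).

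ERBB2, which has no known ligand of its own and is the preferred partner of the other ERBB receptors, differed by little. It read 9.49, 9.39, 9.30 and 9.30 on the negative arrays, 9.29 and 9.16 with siRNA 7, and 9.46 and 9.34 with siRNA 9. The siRNA 7 arrays lay just below all others, whereas the siRNA 9 arrays lay within the negative range. The differences were -0.05 for TRIM44 siRNA, -0.14 for siRNA 7 (limma adjusted p = 0.863), 0.03 for siRNA 9 and -0.17 between the reagents (limma adjusted p = 0.508). ERBB4, the remaining kin of the family, was read with the co-receptors.

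Of the FGF receptors, FGFR1 had the widest range over the 8 arrays. The FGF receptors bind fibroblast growth factors together with heparan sulphate or klotho proteins, and signal mainly through the docking protein FRS2. FGFR1 read 7.27, 7.37, 7.35 and 7.50 on the negative arrays, 7.54 and 7.89 with siRNA 7, and 7.51 and 7.42 with siRNA 9. Both siRNA 7 arrays lay above all negative arrays, 1 of them by a wide margin, and siRNA 9 overlapped negative. The difference was 0.35 for siRNA 7 (SE 0.11, 95% interval 0.10 to 0.59) without passing the threshold (limma adjusted p = 0.418). It was 0.10 for siRNA 9, 0.22 for TRIM44 siRNA (SE 0.10, limma adjusted p = 0.922) and 0.25 between the reagents (limma adjusted p = 0.385). The value for siRNA 7 rested on array 2 of that reagent: it was 0.17 without that array and 0.52 without array 1. Without negative array 2 it was 0.35 (limma adjusted p = 0.305).

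FGFR2 is the receptor whose amplification is best known in diffuse-type stomach cancer. It read 11.73, 11.80, 11.72 and 11.65 on the negative arrays, 11.78 and 11.94 with siRNA 7, and 11.79 and 11.75 with siRNA 9. The groups overlapped. The difference for TRIM44 siRNA was 0.09, with an interval of -0.08 to 0.26, which spans 94.7% to 120% of the negative level. The reagents gave 0.13 and 0.05.

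FGFR3, which like FGFR4 signals in epithelia, read 8.54, 8.40, 8.29 and 8.42 on the negative arrays, 8.41 and 8.50 with siRNA 7, and 8.56 and 8.33 with siRNA 9. FGFR4, the receptor that serves FGF19 with beta-klotho in the liver, read 9.00, 8.88, 9.01 and 9.18, then 8.99 and 9.20, then 9.17 and 9.00 in the same order. For both, each TRIM44 siRNA array lay within or close to the negative range. Their differences for TRIM44 siRNA were 0.04 and 0.07, and each reagent gave 0.03 to 0.08.

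MET, the receptor of hepatocyte growth factor, and MST1R (also known as RON), its kin for macrophage stimulating protein, had values within the negative range. MET read 11.37, 11.61, 11.42 and 11.25 on the negative arrays, 11.46 and 11.40 with siRNA 7, and 11.44 and 11.48 with siRNA 9. MST1R read 7.78, 7.98, 7.71 and 7.92, then 7.91 and 7.87, then 7.95 and 7.76. For both genes the highest value of all arrays was that of negative array 2. The differences from negative were between 0.00 and 0.05 in all 3 comparisons.

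IGF1R, the receptor of insulin-like growth factors, was read by both of its probe sets. The brighter read 8.57, 8.55, 8.55 and 8.38 on the negative arrays, 8.44 and 8.64 with siRNA 7, and 8.58 and 8.45 with siRNA 9. The dimmer read 6.70, 6.96, 6.90 and 6.60, then 6.46 and 7.00, then 6.93 and 6.94. The siRNA 7 arrays of the dimmer probe set held both the lowest and the highest value, so this group's SD was 0.38. Differences for TRIM44 siRNA were 0.02 and 0.04, and the groups overlapped for both probe sets.

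The intervals give the precision of these differences. The median width on either side of a receptor's difference was 0.19 for TRIM44 siRNA, 0.23 for each reagent and 0.26 between the reagents, close to 0.21, 0.24, 0.24 and 0.27 over all probe sets. These intervals are not adjusted for the number of probe sets, and larger differences of ERBB3, FGFR1 and EGFR did not pass the adjusted threshold either. A p that misses the threshold does not show equal levels. Of 11 receptor probe sets, 9, 7 and 10 had a difference above 0 for TRIM44 siRNA, siRNA 7 and siRNA 9, against 53.7%, 49.3% and 56.5% of all. Between the reagents it was 7 of 11, against 43.3%. The median differences of the receptors were 0.04, 0.03, 0.05 and 0.01, and those of all probe sets 0.01, -0.00, 0.02 and -0.03. Against negative siRNA, ERBB3 lay below 0 in all 3 comparisons, ERBB2 with TRIM44 siRNA and siRNA 7, and EGFR and the dimmer IGF1R probe set with siRNA 7 only.

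**Figure D2:**
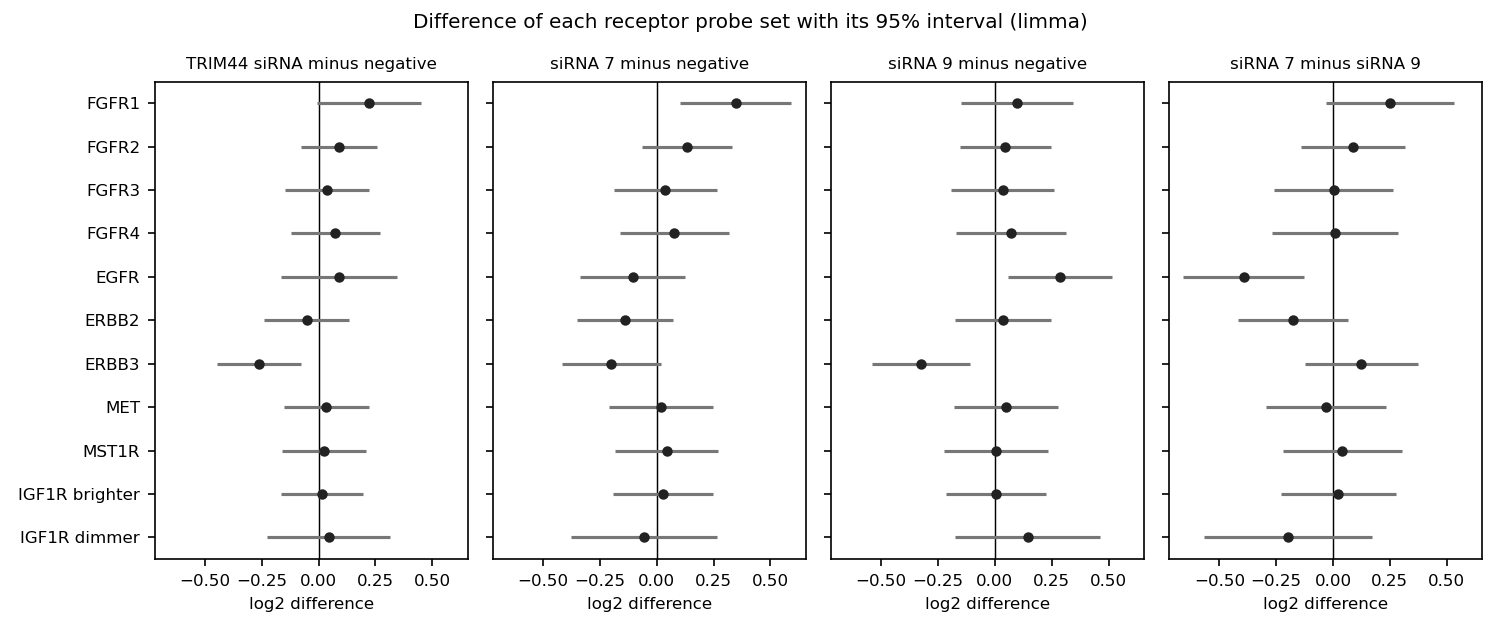
Log2 difference (horizontal axis) of each receptor probe set in the 4 comparisons, with points for the limma estimate and bars for its 95% interval. The interval leaves out 0 for ERBB3 with TRIM44 siRNA (-0.26) and siRNA 9 (-0.32), for FGFR1 with siRNA 7 (0.35), and for EGFR with siRNA 9 (0.29) and between the reagents (-0.39); none passed after adjustment over all probe sets.

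The receptors did not vary as 1 block across the arrays. The ranges over 8 arrays were 0.62 for FGFR1, 0.55 for EGFR, 0.54 for the dimmer IGF1R probe set and 0.47 for ERBB3, and between 0.26 and 0.35 for the other 7 probe sets, where the median probe set of the array ranged over 0.39. Of 45 pairs of receptors, 31 had a Pearson r above 0 over the 8 arrays, with a median of 0.15 and extremes of -0.75 (FGFR1 with ERBB2) and 0.75 (EGFR with ERBB2). FGFR1 and FGFR2 stood at 0.72, but at 0.38 once the group means were taken out, and FGFR2 and IGF1R at 0.73 and 0.89. ERBB3 and EGFR stood at -0.20 over all arrays and at 0.93 within groups. ERBB3 and ERBB2 likewise went from 0.36 to 0.87, and EGFR and ERBB2 from 0.75 to 0.81. These 8 points share the cell line, the groups and the normalisation, so that the values are a description only.

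**Figure D3:**
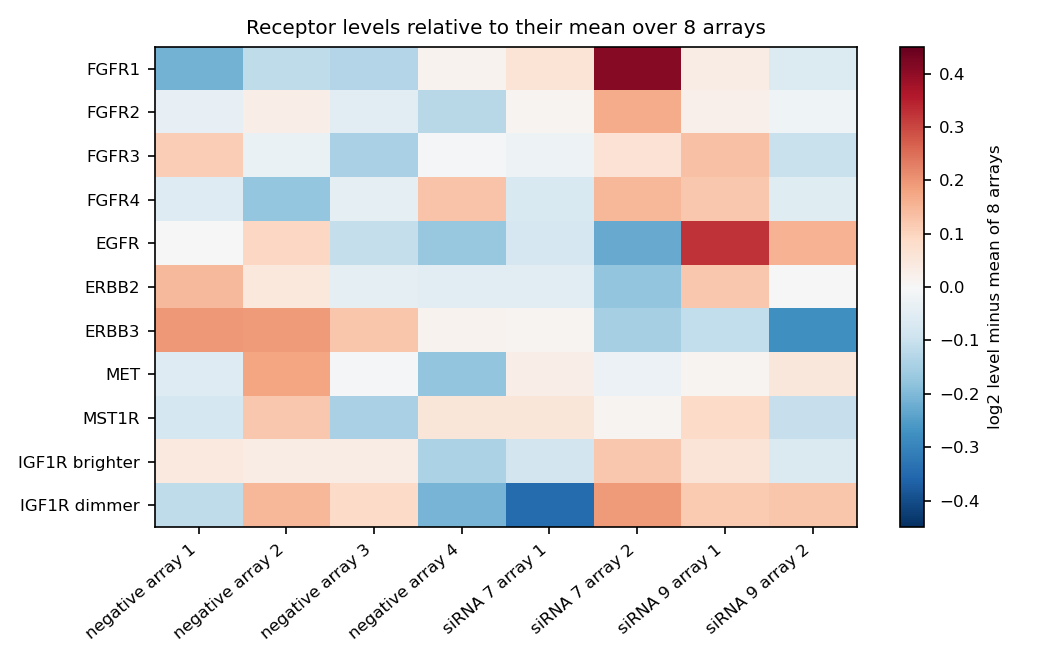
Each receptor probe set (vertical axis) on each array (horizontal axis) as log2 level minus the mean of the 8 arrays, red above and blue below the mean. FGFR1 on siRNA 7 array 2 and EGFR on siRNA 9 array 1 are the darkest red cells, and ERBB3 is red on negative arrays 1 to 3, near the mean on negative array 4 and siRNA 7 array 1, and blue on siRNA 7 array 2 and both siRNA 9 arrays.

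The genes whose level over the 8 arrays was most like each receptor's were found over all genes outside the set. For ERBB3 they were SH3D19, an SH3 domain adaptor, and S100A14, a calcium-binding protein of epithelia (Pearson r 0.97 and 0.96). For EGFR they were IST1, an ESCRT-III regulator of endosomal sorting, and CNTLN (0.98 and 0.97). For FGFR1 they were PEX5, the import receptor of peroxisomes, and the connexin GJB5 (0.98 and 0.98). ERBB2 was most like the transporter ABCC3 and the kinase CDC42BPB (0.97 and 0.97), and MET most like RAB11A, a GTPase of recycling endosomes, and FREM2 (0.98 and 0.97). FGFR4 was most like TBC1D24 and CSK (0.98 and 0.97), FGFR3 most like CYLC2 and CPLX3 (0.97 and 0.94), and FGFR2 most like BTF3P11 and C10orf12 (0.97 and 0.96). MST1R was most like KDM4B and CRADD (0.93 and 0.92), and IGF1R most like RGS17 and SNORA67 (0.93 and 0.93). With 18404 genes to choose from and 8 arrays, values of this size carry no test, and every receptor had such neighbours in pattern.

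For the receptors best known from amplified segments, the 3 nearest measured genes on either side were read. All groups are the same cell line, so these differences between groups cannot show whether a segment is gained. FGFR2 lies at chr10:121478330-121598458 (GRCh38.p14), with PLPP4, LINC01561, WDR11, ATE1, NSMCE4A and TACC2 around it. With siRNA 7, 0 of these 6 neighbours had a difference above 0 (-0.33 to -0.08), against 49.3% of all probe sets, and FGFR2 stood at 0.13. With siRNA 9, 5 of 6 were above 0, up to 0.24 for ATE1, against 56.5% of all probe sets. None passed the limma threshold, the lowest adjusted p being 0.0545 for NSMCE4A between the reagents (-0.43). ERBB2 lies at chr17:39688094-39728658, and 3 of its 6 neighbours (TCAP, PNMT, PGAP3, MIEN1, GRB7 and IKZF3) were above 0 in each comparison. PGAP3 differed most, by -0.35 with siRNA 9 (limma adjusted p = 0.157), while GRB7, the adaptor often gained together with ERBB2, gave -0.04. MET lies at chr7:116672196-116798377, with TFEC, TES, CAV1, CAPZA2, ST7 and WNT2 around it. With siRNA 9, 4 of these 6 were above 0 (-0.10 to 0.34), against 56.5% of all probe sets. The highest was CAV1, the caveolin beside MET (limma adjusted p = 0.163), while MET gave 0.05. Of the other receptors, EGFR lies at chr7:55019017-55211628, ERBB3 at chr12:56080108-56103505, FGFR3 at chr4:1793293-1808867 and FGFR4 at chr5:177086915-177098144. MST1R lies at chr3:49887002-49903873, IGF1R at chr15:98648539-98964530 and FGFR1 on chromosome 8.

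The pathways around the receptors were read from 9 lists of ligands, co-receptors, signal transducers, regulators and related kinases. For TRIM44 siRNA and for siRNA 7 against negative siRNA, 0 genes of these lists passed the limma threshold, and 1 gene in each of 2 lists passed for siRNA 9. These were PLCG1, which rose, and ADAM9, which fell. Between the reagents GAB1 alone passed. Of all 19158 probe sets, 0.00522% passed for TRIM44 siRNA, 0.0679% for siRNA 7, 0.924% for siRNA 9 and 2.23% between the reagents. At an unadjusted limma p under 0.05, the lists held 0 to 2 genes each for TRIM44 siRNA, 0 to 7 for siRNA 7, 0 to 5 for siRNA 9 and 0 to 6 between the reagents. The highest counts were 7 of 37 other receptor tyrosine kinases for siRNA 7 and 5 of 22 adaptors for siRNA 9. Between the reagents there were 6 of 22 adaptors and 4 of 9 sheddases and chaperones. The FGF ligands held 0 of 18 for siRNA 7, 1 of 18 for siRNA 9 and 0 of 18 between the reagents. The lists were not tested as sets. At the unadjusted p, the shares of all probe sets were 5.43%, 7.46%, 13.6% and 15.7%.

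**Figure D4:**
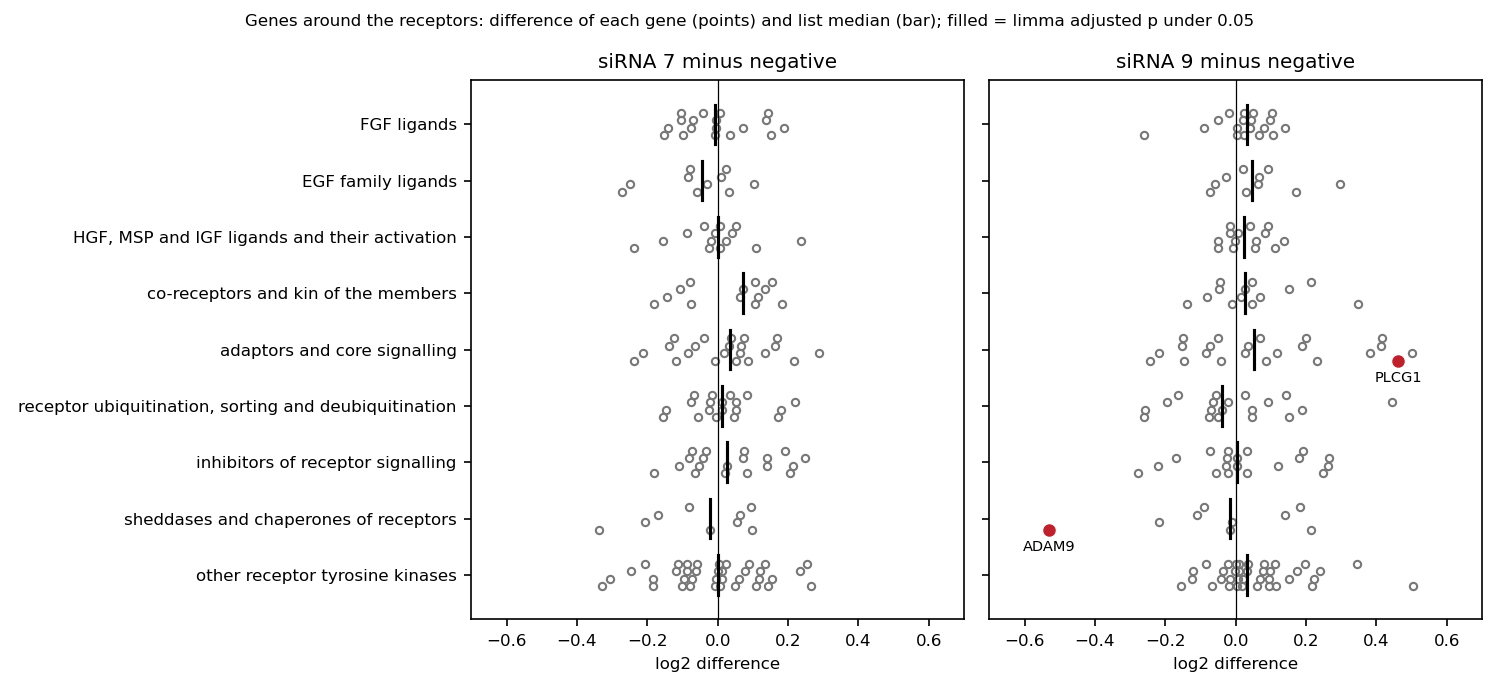
Log2 difference from negative siRNA (horizontal axis) of every measured gene in the 9 lists (rows), for siRNA 7 at left and siRNA 9 at right; open points are genes, filled red points genes past a limma adjusted p of 0.05, and bars list medians. List medians stay between -0.04 and 0.07, and only PLCG1 (0.46) and ADAM9 (-0.53), both with siRNA 9, are filled.

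Among ligands, 0 of 18 FGF genes, 0 of 10 measured EGF family genes (11 listed) and 0 of 14 measured HGF, MSP and IGF genes (16 listed) passed in any comparison. Their medians for TRIM44 siRNA were 0.01, 0.00 and 0.01, and 9, 5 and 8 genes lay above 0. FGF1, which binds all FGF receptors, differed by -0.18 (limma adjusted p = 0.922) and by -0.26 with siRNA 9 (limma adjusted p = 0.249). TGFA and HBEGF, both EGFR ligands, differed by -0.25 and -0.27 with siRNA 7 (limma adjusted p = 0.552 and 0.693). With siRNA 9 they differed by -0.03 and 0.06. HBEGF read 8.17 and 7.74 on the siRNA 7 arrays, the first of them within the negative range of 8.12 to 8.40. NRG3, a neuregulin that binds ERBB4, differed by 0.30 with siRNA 9 (limma adjusted p = 0.254) and by 0.01 with siRNA 7. HGF, the MET ligand, differed by -0.24 and IGFBP7 by 0.24 with siRNA 7, and by 0.09 and 0.01 with siRNA 9. FGF9, FGF18, FGF20, FGF5, NRG2, EPGN, HGFAC, IGFBP4 and HPN, the other genes of these lists with the lowest p, lay between -0.08 and 0.19 where they ranked.

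Of the co-receptors and kin of the receptors, 13 of 14 were measured and 0 passed, with medians of 0.03 for TRIM44 siRNA, 0.07 for siRNA 7 and 0.03 for siRNA 9. The insulin receptor INSR differed by 0.18 for TRIM44 siRNA, and IGF2R, which clears IGF2, by 0.35 for siRNA 9 (limma adjusted p = 0.126). IGF2R differed by 0.39 and passed when negative array 2 was left out (adjusted p = 0.0303). Without that array 1067 of all 19158 probe sets passed for siRNA 9, against 177 with it. IGF2R read 9.43, 9.62, 9.54 and 9.37 on the negative arrays, 9.44 and 9.39 with siRNA 7 and 9.88 and 9.79 with siRNA 9, so that siRNA 9 stood above all others. KL, the klotho co-receptor of FGF23, differed by -0.18 and the HGF and VEGF co-receptor NRP1 by 0.18 with siRNA 7. With siRNA 9 they gave 0.03 and -0.01. The glypican GPC1 gave -0.08 for TRIM44 siRNA.

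Of the adaptors and core signalling genes, 22 of 32 were measured. Phospholipase C gamma, PLCG1, which FGF receptors and EGFR phosphorylate directly, rose by 0.46 with siRNA 9 (SE 0.09, limma adjusted p = 0.0453). It read 9.01, 8.99, 9.02 and 9.14 on the negative arrays, 9.03 and 9.13 with siRNA 7, and 9.59 and 9.42 with siRNA 9. The siRNA 9 arrays stood above all others, and the siRNA 7 difference was 0.04. The call was lost in a fit of only the arrays compared (adjusted p = 0.0577), and without negative array 1 or 3, either siRNA 7 array or either siRNA 9 array (0.0577 to 0.504). PLCG1 gave 0.45 (adjusted p = 0.0210) without negative array 2. PLCG1 differed by -0.42 between the reagents (limma adjusted p = 0.0674, and 0.0370 without that array, where 1050 of all 19158 probe sets passed).

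GAB1, the docking protein that links MET and EGFR to PI3 kinase and SHP2, passed between the reagents. Its brighter probe set read 9.08, 9.48, 9.22 and 9.14 on the negative arrays, 9.01 and 8.97 with siRNA 7, and 9.66 and 9.57 with siRNA 9. The siRNA 7 arrays lay below and the siRNA 9 arrays above all negative arrays. The difference siRNA 7 minus siRNA 9 was -0.62 (SE 0.13, limma adjusted p = 0.0337), with -0.24 and 0.38 against negative siRNA. The dimmer GAB1 probe set gave -0.13 between the reagents (limma adjusted p = 0.613), and the call of the brighter one was lost without negative array 3, either siRNA 7 array or either siRNA 9 array (adjusted p = 0.0641 to 0.280). Without negative array 2 the adjusted p was 0.00515. The difference of siRNA 9 from negative, 0.38 with all arrays (limma adjusted p = 0.154), was then 0.46 and passed (adjusted p = 0.0126). Over all 19158 probe sets, leaving out this array raised the calls from 177 to 1067 for siRNA 9. Between the reagents it raised them from 428 to 1050. GRB2, the adaptor that brings SOS to the receptors, differed by 0.20 for TRIM44 siRNA and 0.29 for siRNA 7 (limma adjusted p = 0.903 and 0.409). Each of its siRNA 7 arrays (9.75 and 9.80) lay above the negative range of 9.37 to 9.58. IRS1, the substrate of the insulin and IGF1 receptors, differed by 0.32 for TRIM44 siRNA (limma adjusted p = 0.855).

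Of the 19 genes of receptor ubiquitination, sorting and deubiquitination, all were measured and 0 passed. RNF41 (also known as NRDP1), the ubiquitin ligase that acts on ERBB3, differed by -0.12 for TRIM44 siRNA and by -0.26 for siRNA 9 (limma adjusted p = 0.208). It read 9.08, 8.97, 9.07 and 9.04 on the negative arrays, 9.07 and 9.04 with siRNA 7, and 8.85 and 8.71 with siRNA 9. The siRNA 9 arrays were below all others. NEDD4 differed by -0.06 for siRNA 7 and by 0.44 for siRNA 9 (limma adjusted p = 0.176). Without negative array 2 the siRNA 9 difference was 0.54 and passed (adjusted p = 0.0207), as 1067 of all 19158 probe sets did. CBLC, the epithelial member of the CBL ligases, differed by -0.16 for TRIM44 siRNA. The endocytic genes SH3GL2 and EPS15 differed by 0.22 and 0.17 for siRNA 7. For siRNA 9 they differed by -0.05 and -0.20, and EPS15 then lay below all negative arrays (limma adjusted p = 0.358).

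Of the inhibitors of receptor signalling, 19 of 21 were measured and 0 passed. LRIG1, a membrane protein that promotes degradation of ERBB receptors, was higher on all 4 TRIM44 siRNA arrays (9.74, 9.81, 9.87 and 9.74) than on the negative arrays (9.54, 9.47, 9.60 and 9.62). Its difference of 0.23 (SE 0.08) did not pass the threshold (limma adjusted p = 0.800), and all probe sets with every TRIM44 siRNA array above the negative ones made up 1.59% of the total. LRIG3 differed by 0.27 for siRNA 9 (limma adjusted p = 0.188) and by 0.03 for siRNA 7. SPRY2, a feedback inhibitor of RAS signalling, and GRB10, which restrains the insulin and IGF1 receptors, differed by 0.23 and -0.23 for TRIM44 siRNA. DUSP4, a MAP kinase phosphatase, differed by 0.25 for siRNA 7 and by -0.02 for siRNA 9.

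All 9 sheddases and chaperones were measured. ADAM9, a membrane metalloprotease that cleaves growth factor precursors, fell by 0.53 with siRNA 9 (SE 0.10, limma adjusted p = 0.0357). It read 10.91, 11.08, 10.99 and 10.86 on the negative arrays, 10.86 and 10.64 with siRNA 7, and 10.37 and 10.48 with siRNA 9. The siRNA 9 arrays lay below all others, and siRNA 7 array 1 lay at the edge of the negative range. The difference was -0.21 for siRNA 7 and -0.37 for TRIM44 siRNA (limma adjusted p = 0.728 and 0.788). The call was lost without negative array 1 or 3 or either siRNA 9 array (adjusted p = 0.0821 to 0.455), and without negative array 2 the difference was -0.49 (adjusted p = 0.0157). ADAM17, the main sheddase of EGFR ligands, differed by -0.34 for siRNA 7 (limma adjusted p = 0.342) and by -0.02 for siRNA 9. RHBDF2, its escort protein, differed by 0.14 for TRIM44 siRNA. CDC37, the kinase co-chaperone of HSP90, differed by -0.22 for siRNA 9 and by 0.06 for siRNA 7.

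Among other receptor tyrosine kinases, 37 of 42 were measured and 0 passed. Their medians were 0.01, 0.00 and 0.03 for TRIM44 siRNA, siRNA 7 and siRNA 9, beside 0.04, 0.03 and 0.05 for the receptors described here. RYK, a Wnt receptor without an active kinase, read 11.03, 11.19, 11.02 and 11.05 on the negative arrays, 11.25 and 11.40 with siRNA 7, and 11.23 and 11.39 with siRNA 9. All TRIM44 siRNA arrays were above the negative ones, and the difference of 0.25 did not pass (limma adjusted p = 0.800). The ephrin receptor EPHA4 differed by 0.14 for siRNA 7 and by 0.50 for siRNA 9 (limma adjusted p = 0.0930). Without negative array 2 the siRNA 9 difference was 0.58 and passed (adjusted p = 0.0121), as 1067 of all 19158 probe sets did. EPHA1 differed by -0.17 for TRIM44 siRNA, and EPHB1 and MUSK by -0.33 and -0.31 for siRNA 7 (limma adjusted p = 0.336 and 0.423). For siRNA 9, EPHB1 and MUSK gave -0.04 and 0.03.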

How the data were processed

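The authors deposited 1 log2 expression level per probe set and array, 32321 probe sets in all. Per the submitters' processing notes limma had a part, which they do not describe. At equal rank, sorted values of the arrays lay within 0.180 of each other. Sources used here do not give the normalisation, background correction or genome build, nor the signal over background.

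Symbols came from the annotation of the array's probes, looked up by gene ID in RefSeq (GRCh38.p14; 19128 found, 0 changed). Probe sets with 1 symbol (19158) were tested, and 1388 with several and 11775 with none were left out. Where a gene had several probe sets, the brightest represented it.

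A 2-group limma fit set TRIM44 siRNA against negative siRNA, and the reagents were compared in a fit of 3 group means over all 8 arrays, with 2-sided moderated tests, Benjamini-Hochberg adjustment over 19158 probe sets and a threshold of 0.05. No filter on level was used. The fits were tested on simulated data. The named genes were all 10 receptors, TRIM44, up to 3 genes of each list by smallest p in the 2-group fit and up to 2 in each reagent contrast, list genes past the threshold (GAB1 between the reagents, chosen after its value was seen), the 2 genes most like each receptor, and 3 neighbours on each side of FGFR2, ERBB2 and MET. The receptors, lists and rules were chosen with earlier results of these data known. Alternatives were median centring, quantile normalisation, array weights, a robust and trended prior, testing all probe sets or the upper 50% by mean, a block of replicate numbers, siRNA identity as a random block, 3 group means, only the arrays compared, and leaving out each array in turn. R 4.3.3, limma 3.58.1, statmod 1.5.0, pandas 2.3.3 and matplotlib 3.10.9 were used.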

Additional observations from a re-analysis of the deposited data

Results flagged for a closer look

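On the brighter IGF1R probe set, negative array 4 at 8.38 stood apart from the other negative arrays, the nearest at 8.55 and the farthest at 8.57. On the dimmer IGF1R probe set, siRNA 7 array 1 at 6.46 stood apart from the other TRIM44 siRNA arrays, which lay between 6.93 and 7.00. Of 22 groups of 4 arrays looked at, 2 had such an array, and chance alone marks about 1 group in 20. GAB1 differed between the reagents by -0.62 for siRNA 7 minus siRNA 9 on its brighter probe set, in opposite directions from negative siRNA (-0.24 and 0.38), and by -0.13 on its dimmer one.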

How the results depend on the processing

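Of the receptor counts past the threshold, 0 in all 4 comparisons, the only one to differ under an alternative was that of siRNA 9, at 2 with array weights (EGFR, 0.32, limma adjusted p = 0.0272; ERBB3, -0.32, limma adjusted p = 0.0214), where all probe sets past it went from 177 to 2082. ERBB3 stayed below negative under every alternative run, from -0.32 to -0.21 for TRIM44 siRNA, -0.28 to -0.12 for siRNA 7 and -0.41 to -0.24 for siRNA 9. EGFR stayed at 0.19 to 0.37 for siRNA 9 and -0.48 to -0.31 between the reagents. FGFR1 and the dimmer IGF1R probe set were not among the upper 50% of probe sets by level.

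The difference of TRIM44 kept its sign against negative siRNA, and its call was lost for TRIM44 siRNA with median centring (-0.81, adjusted p = 0.108), all probe sets (-0.81, 0.442) and siRNA identity as a random block (-0.81, 0.108). For siRNA 7 it was lost with median centring (-0.83, 0.0660), all probe sets (-0.84, 0.262) and only the arrays compared (-0.84, 0.117), and for siRNA 9 with all probe sets (-0.78, 0.0857). Leaving out 1 array gave -0.87 to -0.73, -1.05 to -0.63 and -0.83 to -0.74, and -0.27 to 0.15 between the reagents. The siRNA 7 call was lost without negative array 1, 3 or 4, siRNA 7 array 1 or either siRNA 9 array, and the siRNA 9 call without either siRNA 9 array. For lost calls the cause was not tested. PLCG1 and ADAM9 with siRNA 9 were also lost over all probe sets (adjusted p = 0.136 and 0.130), as was GAB1 between the reagents (0.120, and 0.0566 with median centring). With siRNA 9, array weights brought NRG3, IGF2R, GAB1, RNF41, NEDD4, LRIG3, RYK and EPHA4 past the threshold (adjusted p = 0.0385, 0.0167, 0.00948, 0.0254, 0.0166, 0.0251, 0.0403 and 0.00464). EPHA4 also passed among the upper 50% of probe sets (0.0434) and with the trended and robust prior (0.0465), and PLCG1 between the reagents under these 3 settings (0.0287, 0.0281 and 0.0373).

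Receptor differences near 0 changed sign. For TRIM44 siRNA, array weights gave 0.00041 for ERBB2 and -0.021 for the brighter IGF1R probe set. For siRNA 7, quantile normalisation gave -0.00074 for MET. For siRNA 9, MST1R gave -0.011 with quantile normalisation and -0.0084 with median centring, and the brighter IGF1R probe set -0.016, -0.00898 and, with array weights, -0.023. With 1 array left out, the ranges for TRIM44 siRNA were -0.0061 to 0.079 (FGFR3), -0.0032 to 0.18 (EGFR), -0.0198 to 0.098 (MET), -0.0203 to 0.069 (MST1R), -0.029 to 0.046 and -0.019 to 0.17 (IGF1R brighter and dimmer) and -0.047 to 0.18 (GAB1). For siRNA 7 they were -0.0064 to 0.082 (FGFR3), -0.031 to 0.19 (FGFR4), -0.035 to 0.083 (MET), -0.00017 to 0.089 (MST1R), -0.075 to 0.13 and -0.32 to 0.21 (IGF1R) and -0.012 to 0.086 (PLCG1). For siRNA 9 they were -0.081 to 0.15 (FGFR3), -0.016 to 0.16 (FGFR4), -0.026 to 0.095 (ERBB2), -0.0042 to 0.11 (MET), -0.0903 to 0.0996 (MST1R) and -0.057 to 0.066 (brighter IGF1R). Between the reagents they were -0.11 to 0.12 (FGFR3), -0.10 to 0.12 (FGFR4), -0.055 to 0.14 (MST1R), and -0.079 to 0.13 and -0.47 to 0.069 (IGF1R).

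Over all probe sets, 1, 13, 177 and 428 passed for TRIM44 siRNA, siRNA 7, siRNA 9 and between the reagents. Without negative array 2 these counts were 0, 35, 1067 and 1050. Leaving out 1 array gave 0 to 2, 1 to 35, 0 to 1067 and 0 to 1050. Median centring gave 0, 1, 167 and 351, all probe sets 0, 0, 28 and 8, array weights 33, 70, 2082 and 1063, and quantile normalisation 1, 19, 227 and 544. The trended and robust prior gave 2, 83, 405 and 792, the upper 50% of probe sets 2, 64, 390 and 703, and the replicate block 0, 0, 44 and 450. For TRIM44 siRNA, 3 group means gave 4 and the random block 0. With only the arrays compared, siRNA 7 gave 1, siRNA 9 157 and the reagents 807.

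The negative and TRIM44 siRNA groups share only replicate numbers 1 and 2. Deviations of same-numbered arrays from their group means correlated at 0.27, 0.31, 0.06, 0.13 and 0.02. With 2 arrays per reagent these deviations mirror each other: negative array 1 gave 0.27 with siRNA 7 array 1 and -0.27 with array 2. The values therefore cannot show whether same-numbered arrays share more than a number. With the replicate number as a block, 0 receptors passed in each comparison, and TRIM44 differed by -0.88 (limma adjusted p = 0.998) for TRIM44 siRNA and -0.91 (0.152) for siRNA 7. PLCG1, ADAM9 and GAB1 were not past the threshold (0.147, 0.140 and 0.0513). Signs turned for TRIM44 siRNA in FGFR3 (-0.023), EGFR (-0.00304), MET (-0.042), MST1R (-0.0088), the brighter IGF1R probe set (-0.031) and HGFAC (0.0096). They turned for siRNA 7 in FGFR3 (-0.021), MET (-0.057) and brighter IGF1R (-0.019), and for siRNA 9 in FGFR3 (-0.024), ERBB2 (-0.035), MET (-0.026), MST1R (-0.029) and brighter IGF1R (-0.043).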
